A study of Homo sapiens with 12 samples.

Results

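Genes of the cornified envelope and of terminal differentiation were followed in TIGK cells, an established human line of keratinocytes from gingiva, which hTERT (telomerase) keeps dividing. The members were all protein coding genes whose symbol begins with SPRR or LCE and a digit, together with 24 named genes, and 53 of the 58735 genes in the count table met this rule. Cells were grown at 48 mM glucose with 500 µM L-Arginine (Arg) or with none added for 24 or 48 h, in a base medium that contains no arginine. Each of the 4 groups (24 h control, 24 h Arg, 48 h control, and 48 h Arg) had 3 libraries, labelled A, B, and C, so 12 libraries were compared. All groups share the cell line, the high glucose, and the medium. Nothing in the labels says that the libraries of a group came from separate cultures, so the p-values measure the spread between these libraries. TIGK is a single line grown as a submerged culture in wells, which limits it as a model of a layered epithelium.

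Keratinocytes that leave the basal layer replace their plasma membrane with the cornified envelope, a shell of proteins that transglutaminases join by covalent bonds. Envoplakin (EVPL), periplakin (PPL), and involucrin (IVL) form the scaffold beneath the membrane. Loricrin (LOR), the small proline rich proteins (SPRR), and the late cornified envelope proteins (LCE) are added later as reinforcement. Lipoxygenases help to attach a lipid layer to the outer face, and the S100 fused proteins, such as filaggrin (FLG), fill or border the cell. In the mouth, gingiva carries a cornified surface, while the lining mucosa stays largely uncornified and is known for SPRR3.

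The libraries held between 16542243 and 19040964 counts, and the members took between 0.0489% and 0.0813% of them. All 11 keratinocyte markers, KRT5 and KRT14 among them, were at 1 CPM (counts scaled to library size with TMM factors) or more in every group. Their summed level lay between 43766 and 56323 CPM. Of 7 fibroblast markers 2 or 3 reached 1 CPM in a group, mainly DCN and COL1A1, while COL1A2 had 2 counts in all. Their summed level lay between 30.2 and 54.4 CPM at 24 h and between 72.7 and 102 CPM at 48 h, and its part in the changes with time was not tested. The summed level of 5 endothelial markers, mainly KDR, lay between 0.920 and 3.17 CPM at 24 h and between 4.31 and 6.55 CPM at 48 h. Of the other lists, 5 melanocyte markers summed to between 1.03 and 3.05 CPM (mainly PMEL), 6 immune markers to between 0.990 and 3.56 CPM (mainly CD14), and 4 Merkel cell markers to between 9.67 and 13.3 CPM (SOX2 and ISL1), while TYR, MS4A1, and ATOH1, each a defining marker of its list in that order, had 0 counts in all libraries. Replicate B of the 48 h control stood apart from its group. Mitochondrially encoded genes took 1.55% of its counts, against 0.906% and 0.707% in replicates A and C. Replicate B was the lowest of the 12 libraries for 8 of the 27 members that could be tested. Other libraries were also extreme, since 24 h control replicate C was the highest for 7 members and 48 h control replicate A for 6. The median deviation of the members from their group mean, on a log2 scale, was -0.06 in replicate B and 0.16 and -0.05 in A and C. In the 48 h Arg libraries A, B, and C, mitochondrially encoded genes took 1.14%, 1.31%, and 1.16%. Results that rest on replicate B of the 48 h control are given with and without it. In bulk RNA, fewer cells of a type and less RNA per cell cannot be told apart.

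Of the 53 members, 27 entered at least 1 test and 26 had too few counts for any. Of all members, 23 stayed below 10 counts in every library, and LCE2D, LCE3A, LCE3B, and LCE4A had 0 counts throughout. Detection differed between roles. Of the 6 scaffold and related envelope proteins 5 were tested (PPL, EVPL, IVL, CSTA, and CNFN), and loricrin did not exceed 8 counts in any library. Of the 11 SPRR genes 8 were tested, and of the 18 LCE genes only LCE3C, LCE3D, and LCE3E. Of the 6 S100 fused genes only FLG and trichohyalin (TCHH) were tested, while FLG2, HRNR, RPTN, and CRNN, the last of which encodes cornulin, stayed at 12 counts or fewer in each library. Both lipoxygenases (ALOX12B and ALOXE3), 2 of 3 transglutaminases (TGM1 and TGM3), 4 of 5 secreted or corneodesmosomal proteins (DMKN, SBSN, KRTDAP, and CST6), and 1 of 2 calmodulin like proteins (CALML3) were tested. The member genes on chromosome 1 are neighbours in the epidermal differentiation complex. They number 37 and span 1156 kb of GRCh38, from base 152106317 (TCHH) to base 153262122 (LOR), and 23 of them entered no test. Of the 16 members on other chromosomes, 3 entered none. Where a gene has few counts, a difference was not detectable at this depth, since 3 counts correspond to between 0.155 and 0.178 CPM.

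**Figure D1:**
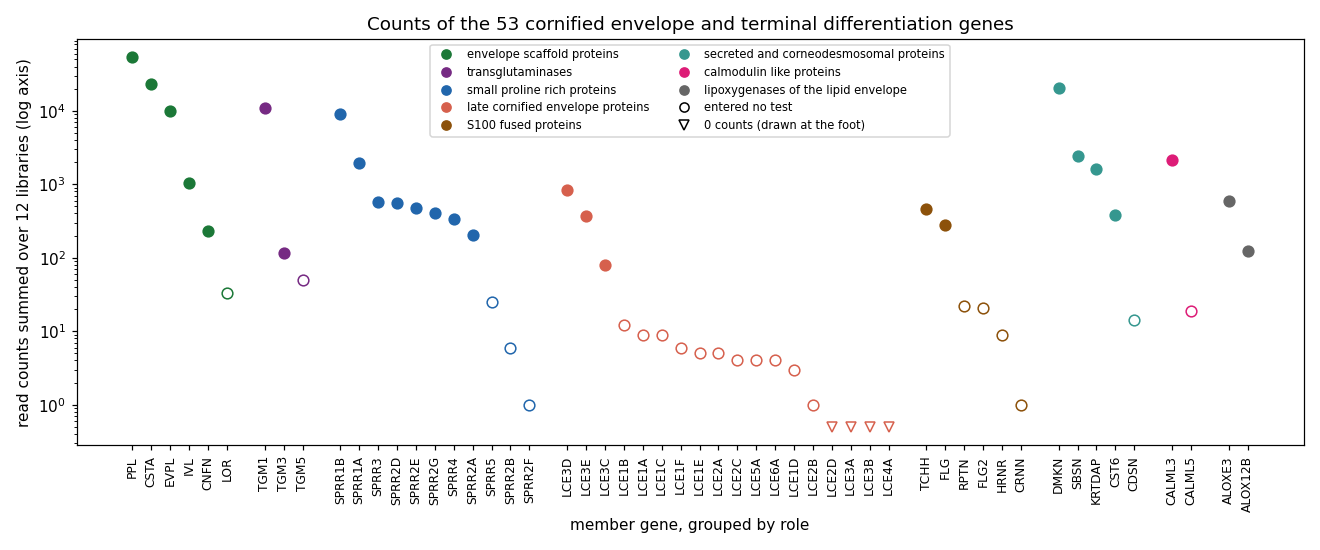
Read counts of each of the 53 members summed over the 12 libraries, on a log axis, grouped by role; open symbols entered no test and triangles at the foot stand for 0 counts. PPL leads with 53299 counts, and 15 of the 18 LCE genes are open.

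A set of 7 promoter sequences is shown because these genes are the chromosome 1 members that changed in any comparison. They come from RefSeq on GRCh38.p14 and are the 250 bases before the start of transcription, written from 5′ to 3′ on the strand of the gene. Capitals mark TATAAA, the box that places the start of transcription, and TGANTCA, the letters bound by AP-1 factors such as FOS and JUN. The 3 LCE genes lie at chr1:152566781-152567030 (minus strand), chr1:152580517-152580766 (minus), and chr1:152599984-152600233 (plus). The SPRR windows lie at chr1:152983831-152984080 (SPRR1A, plus), chr1:153001499-153001748 (SPRR3, plus), chr1:153030953-153031202 (SPRR1B, plus), and chr1:153150891-153151140 (SPRR2G, minus).
LCE3E: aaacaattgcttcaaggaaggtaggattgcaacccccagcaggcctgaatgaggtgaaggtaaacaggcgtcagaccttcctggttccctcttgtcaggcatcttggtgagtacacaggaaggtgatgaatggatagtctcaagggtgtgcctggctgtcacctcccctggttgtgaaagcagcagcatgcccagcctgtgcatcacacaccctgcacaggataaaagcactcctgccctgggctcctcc
LCE3D: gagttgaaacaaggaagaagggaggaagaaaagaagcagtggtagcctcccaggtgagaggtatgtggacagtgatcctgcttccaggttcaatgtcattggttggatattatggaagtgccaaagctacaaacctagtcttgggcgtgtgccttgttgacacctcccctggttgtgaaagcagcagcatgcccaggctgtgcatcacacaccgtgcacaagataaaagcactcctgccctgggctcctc
LCE3C: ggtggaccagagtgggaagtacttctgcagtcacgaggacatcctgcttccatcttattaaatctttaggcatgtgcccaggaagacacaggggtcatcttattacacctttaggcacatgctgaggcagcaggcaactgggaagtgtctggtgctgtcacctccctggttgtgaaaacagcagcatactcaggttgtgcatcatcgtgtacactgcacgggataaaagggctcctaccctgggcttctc
SPRR1A: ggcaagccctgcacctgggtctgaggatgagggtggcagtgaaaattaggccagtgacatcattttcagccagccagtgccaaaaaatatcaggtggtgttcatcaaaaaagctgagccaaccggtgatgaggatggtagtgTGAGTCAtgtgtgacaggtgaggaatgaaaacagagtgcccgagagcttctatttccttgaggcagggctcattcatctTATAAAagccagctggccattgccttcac
SPRR3: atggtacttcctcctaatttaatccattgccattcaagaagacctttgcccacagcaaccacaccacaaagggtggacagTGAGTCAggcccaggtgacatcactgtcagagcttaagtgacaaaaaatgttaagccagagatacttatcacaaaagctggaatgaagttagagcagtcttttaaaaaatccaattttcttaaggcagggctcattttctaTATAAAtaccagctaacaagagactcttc
SPRR1B: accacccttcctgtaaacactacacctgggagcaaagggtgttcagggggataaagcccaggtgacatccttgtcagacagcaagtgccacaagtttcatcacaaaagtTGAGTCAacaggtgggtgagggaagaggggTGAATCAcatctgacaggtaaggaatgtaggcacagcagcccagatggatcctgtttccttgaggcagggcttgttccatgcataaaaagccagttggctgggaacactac
SPRR2G: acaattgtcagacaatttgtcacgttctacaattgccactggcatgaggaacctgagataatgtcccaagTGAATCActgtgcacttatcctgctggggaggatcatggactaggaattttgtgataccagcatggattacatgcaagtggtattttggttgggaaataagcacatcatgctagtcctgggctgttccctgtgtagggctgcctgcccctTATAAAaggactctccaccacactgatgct

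Both motifs were found in SPRR1A, SPRR3, and SPRR2G, and SPRR1B had TGANTCA 2 times without TATAAA. LCE3C, LCE3D, and LCE3E had neither. Motifs were searched on both strands in the full RefSeq windows, which run from 250 bases before to 50 bases after the start. A window was found for 45 of the 53 members, with 50 windows in all, and none for CST6, CSTA, EVPL, LCE1B, PPL, SPRR2D, SPRR2E, and TGM1. TGANTCA occurred in 19 of the 50 windows (38%), against 7.71% of all 35116 windows. It was in 6 of the 9 SPRR windows and in 5 of the 6 windows of S100 fused genes, and in 0 of the 18 LCE windows. TATAAA beginning between positions -36 and -24 from the start was found in 21 of the 50 windows (42%), against 2.71% of all windows, and in 8 of the 9 SPRR windows. CACCC, letters of Kruppel-like factors, was in 38 windows (76%), against 59.9%. AACCGGTT, letters of grainyhead-like factors, was in 0 of them, against 0.134% of all windows. These are descriptions of letters, not of binding.

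Levels were compared between genes only as CPM per kb of exonic length, averaged over the 12 libraries. CSTA, which encodes the protease inhibitor cystatin A, came first with 77.6 CPM per kb, followed by SPRR1B with 68. SPRR1A (32.9), PPL (31.8), TGM1 (13.2), DMKN (12.5), and KRTDAP (11.1) came next. In this order only SPRR1B and SPRR1A did not overlap as neighbours across the libraries. IVL reached 2.25 CPM per kb, and FLG was the lowest of the 27 with 0.0998. For SPRR1A the count table lists 270 exonic bases from base 152985231, while the RefSeq start of the gene lies just after base 152984080, so its level per length depends on that annotation. Among the tested members, identical stretches of 150 bases in another gene's transcripts were found for SPRR2A (12.3% of its stretches, in SPRR2B and SPRR2E) and for SPRR2E (4.15%), whose counts are therefore uncertain. For TGM3 the figure was 96.4%, shared with a GENCODE v44 gene that has no row in the count table. Whether the counting used strand is not stated, so CALML3, FLG, and ALOX12B could hold reads of antisense genes with 311, 44, and 73 counts.

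The first question was whether Arg changed these genes at 24 h. PPL and SPRR2G were upregulated and no member was downregulated. This is 2 of 26 tested members, where 2.79% of all 14279 tested genes were higher and 3.84% lower at an adjusted p under 0.05 (edgeR's quasi-likelihood test, Benjamini-Hochberg adjustment over all tested genes). The median log2 fold change of the 26 was 0.01, against 0.00 over all genes. PPL, a plakin that links keratin filaments and desmosomes to the envelope, was at 125, 171, and 112 CPM in replicates A, B, and C of the control and at 158, 233, and 204 CPM with Arg. The groups overlapped, because control replicate B was above Arg replicate A. The log2 fold change was 0.54 ± 0.14 (SE), with an adjusted p of 0.0255 in edgeR. SPRR2G, an envelope cross-bridging protein, was at 1.14, 2.48, and 1.5 CPM in the control and at 3.26, 3.84, and 3.76 CPM with Arg, without overlap. Its change was 1.08 ± 0.31 on the log2 scale (adjusted p = 0.0457 in edgeR). Both calls were near the threshold. PPL missed it in DESeq2 (adjusted p = 0.144) and without control replicate A or C or Arg replicate B or C, where its log2 fold change lay at 0.48, 0.41, 0.41, and 0.52. SPRR2G missed it in a single model of the 12 libraries (adjusted p = 0.0547 in edgeR) and in 5 of the 6 fits that left out a library, and kept it only without control replicate B, with a log2 fold change of 1.45.

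The LCE genes lay on the other side of 0 at 24 h. LCE3E, an epidermal reinforcement protein, was at 4.00, 1.86, and 4.40 CPM in the control and at 1.91, 1.11, and 1.66 CPM with Arg (log2 fold change -1.13 ± 0.35, adjusted p = 0.0635 in edgeR). LCE3D was at 8.33, 3.10, and 6.83 CPM and then at 3.26, 4.71, and 3.76 CPM (-0.64 ± 0.29, adjusted p = 0.195 in edgeR). LCE3C was at 0.866, 0.564, and 1.27 CPM and then at 0.561, 0.407, and 0.268 CPM (-1.12 ± 0.53, adjusted p = 0.217 in edgeR). None of the 3 passed the test, and for LCE3E and LCE3D the groups overlapped through control replicate B. LCE3E passed it with all libraries in DESeq2 (adjusted p = 0.0413) and, in edgeR, with no filter (0.00948) and with the trend on exonic length removed (0.0457), but not in a single model of the 12 libraries (0.23). Without control replicate B both passed it, with log2 fold changes of -1.43 and -0.96 and adjusted p-values of 0.00713 and 0.0103 in edgeR. Control replicate B was also the highest control library for PPL and for SPRR2G. The secreted protease inhibitor CST6 was at 1.95, 1.64, and 1.39 CPM and with Arg at 2.69, 3.67, and 2.36 CPM (0.80 ± 0.31, adjusted p = 0.134 in edgeR). Groups without overlap were found for 2 members with higher levels (SPRR2G and CST6) and 2 with lower levels (CNFN and LCE3C, which entered the test through their control libraries only), against 12.9% and 13.4% of all tested genes. The core scaffold gene IVL stood at 4.76, 2.60, and 4.28 CPM without and 4.15, 5.76, and 4.99 CPM with Arg, and TGM1 at 27.5, 45.2, and 38.4 CPM without and 36.7, 32.2, and 43.3 CPM with Arg. Their groups overlapped, and neither passed the test (adjusted p = 0.429 and 0.967 in edgeR).

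The same question was asked at 48 h. No member of the 24 tested passed the threshold in either direction, where 0% of the 14562 tested genes were higher and 0.117% lower in edgeR. At an unadjusted p under 0.05, edgeR gave 3 members higher and 3 lower, against 5.94% and 7.49% of all genes, and DESeq2 called PPL higher and CALML3 and SPRR3 lower at an adjusted p under 0.05. SPRR3, a small proline rich protein of the oral and oesophageal lining, was at 4.04, 2.59, and 5.25 CPM in the control and at 1.20, 1.07, and 2.01 CPM with Arg, without overlap. The log2 fold change was -1.47 ± 0.35 (adjusted p = 0.145 in edgeR). CALML3, a calmodulin like protein of epithelia, was at 13.2, 10.3, and 10.4 CPM in the control and at 7.61, 5.59, and 6.44 CPM with Arg, also without overlap (-0.78 ± 0.17, adjusted p = 0.133 in edgeR). SPRR2G was at 1.1, 0.570, and 0.643 CPM and with Arg at 1.25, 1.49, and 1.55 CPM, so that all Arg libraries were again above all control libraries (0.88 ± 0.41, adjusted p = 0.376 in edgeR). Groups without overlap were found for 3 members with higher levels (EVPL, SBSN, and SPRR2G) and for 3 with lower levels (SPRR3, CALML3, and SPRR1B), against 8.56% and 8.51% of all tested genes.

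The number of members called at 48 h rested on replicate B of the 48 h control. Without it, PPL, EVPL, and SBSN were higher with Arg, and SPRR3, CALML3, LCE3E, LCE3D, DMKN, and SPRR1A were lower. That is 3 and 6 of 25 members, where 7.76% of the genes tested without this library were higher and 8.17% lower in edgeR. LCE3E was at 0.0518 CPM in replicate B, from 1 count, while replicates A and C of this control had 2.25 and 1.93 CPM, and at 0.469, 0.476, and 0.403 CPM with Arg. LCE3E entered no test at 48 h with all libraries, and without replicate B it entered through the other control libraries only, since its counts with Arg were 9, 8, and 7, so its call there (-2.20, adjusted p = 0.00282 in edgeR) is a description. LCE3D was at 1.04 CPM in replicate B, against 4.30 and 4.12 CPM in the other control libraries and 1.56, 2.38, and 2.24 CPM with Arg (-1.04 without replicate B, adjusted p = 0.0164 in edgeR). For SPRR3 the value without replicate B was -1.70 (adjusted p = 0.000742 in edgeR), and for CALML3 it was -0.84 (adjusted p = 0.00177 in edgeR). Replicate B also held more of KRT10 and KRT13, 2 keratins of the suprabasal layers, than its group. Levels of other suprabasal keratins in single libraries are not given here. KRT10 stood at 965 CPM in it and at 395 and 345 CPM in its fellow libraries, and KRT13 at 3455 CPM in it and at 1525 and 1430 CPM in them. With Arg at 48 h, KRT10 was at 1109, 694, and 517 CPM and KRT13 at 3011, 2812, and 2909 CPM. Control replicates A and C were below all Arg libraries for both keratins. Fits without replicate B thus leave out the control library nearest to the Arg group on these keratins. The part of this library's state in the calls was not tested.

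**Figure D2:**
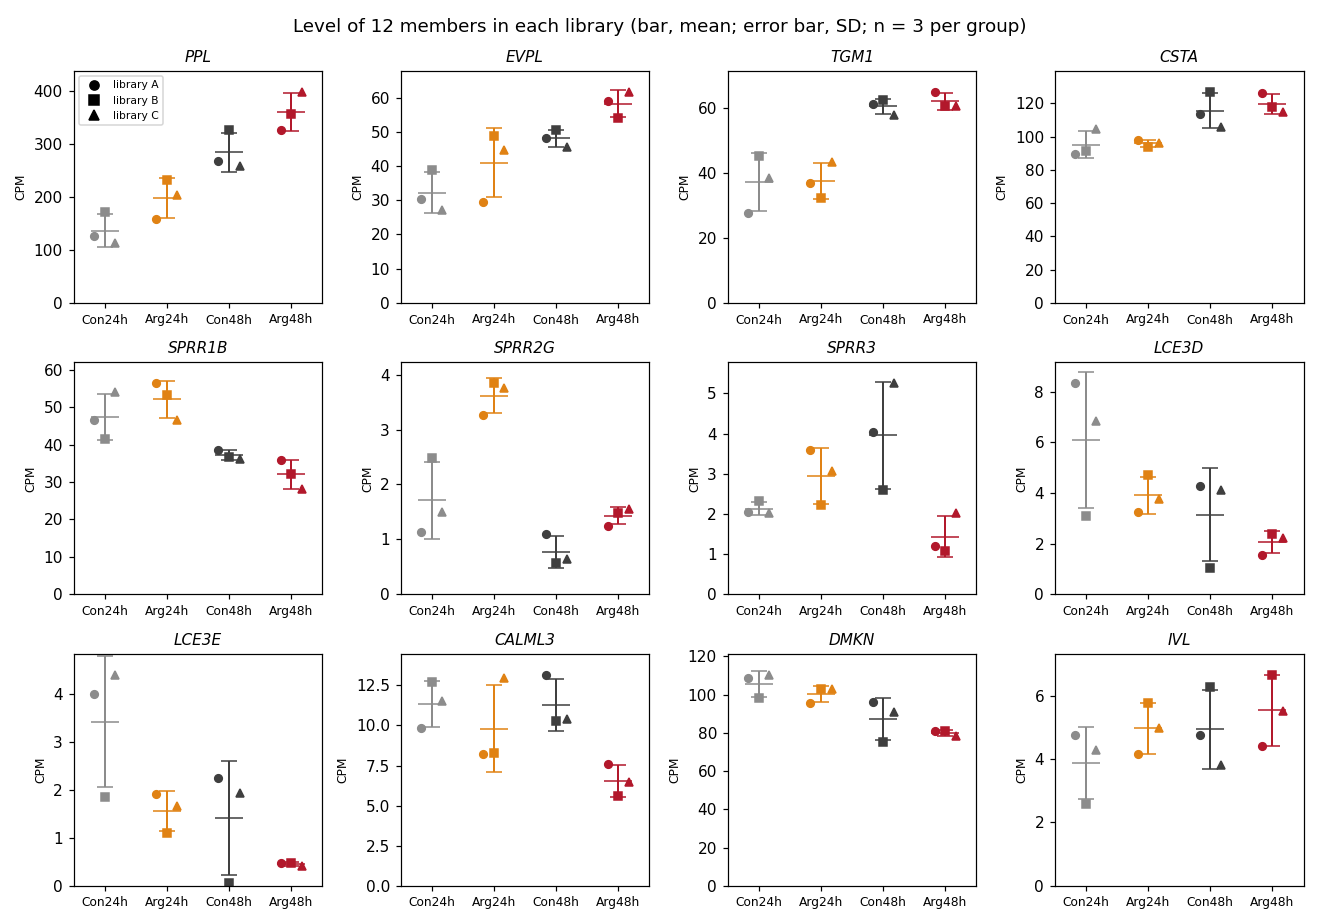
Levels of 12 members in CPM after TMM normalization in each of the 12 libraries; Con and Arg stand for control and Arg, symbols for replicates A, B, and C, the bar is the mean, and the error bar is the SD over 3 libraries. PPL, EVPL, TGM1, and CSTA are higher at 48 h than at 24 h, SPRR1B is lower, and SPRR3 is highest in the 48 h control and lowest in the 48 h Arg group.

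More members passed the test between the times than between Arg and control, and the same held for all tested genes. Without Arg, PPL, TGM1, EVPL, and CSTA rose from 24 to 48 h, and LCE3C and SPRR1B fell. These are 4 and 2 of 27 tested members, against 9.90% and 10% of all 14449 tested genes in edgeR. PPL rose from 125, 171, and 112 CPM to 267, 327, and 259 CPM, without overlap, by 1.07 ± 0.14 on the log2 scale (adjusted p = 0.00159 in edgeR). TGM1, the membrane-bound transglutaminase that joins the scaffold proteins, rose from 27.5, 45.2, and 38.4 CPM to 61.1, 62.3, and 57.7 CPM (0.71 ± 0.14, adjusted p = 0.0073 in edgeR). EVPL, the plakin partner of PPL, rose from 30.5, 38.9, and 27.2 CPM to 48.1, 50.7, and 45.7 CPM (0.58 ± 0.12, adjusted p = 0.00881 in edgeR). All 48 h control libraries were above all 24 h control libraries for these 3 genes. Groups without overlap were found for 5 members with higher and 5 with lower levels at 48 h, against 19.2% and 19.7% of all tested genes. CSTA rose from 89.5, 91.3, and 105 CPM to 114, 127, and 106 CPM, by 0.28 ± 0.09 (adjusted p = 0.0485 in edgeR). IVL, the other scaffold protein, was at 4.77, 6.27, and 3.80 CPM at 48 h and did not pass the test (0.35 ± 0.28, adjusted p = 0.397 in edgeR).

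SPRR1B, the most abundant small proline rich transcript here, fell from 46.5, 41.6, and 54.0 CPM to 38.7, 36.7, and 36.3 CPM (-0.34 ± 0.11, adjusted p = 0.0393 in edgeR). LCE3C fell from 16, 10, and 22 counts to 0, 0, and 3 counts. The ratio of its counts per library size was 0.0586, with an exact binomial 95% interval from 0.0117 to 0.182 that covers counting error only. It entered the test through its 24 h libraries only (adjusted p = 0.01 in edgeR). SPRR3 was at 2.06, 2.31, and 2.03 CPM at 24 h and at 4.04, 2.59, and 5.25 CPM at 48 h, without overlap, and just missed the threshold (0.89 ± 0.30, adjusted p = 0.0535 in edgeR). It passed in 6 of 7 alternatives with all libraries, at adjusted p-values from 0.027 in edgeR with no filter to 0.0541 with DESeq2 size factors, the setting in which it did not. PPL and TGM1 passed it whichever library was left out. EVPL missed it without replicate A or C of the 24 h control, with a log2 fold change of at least 0.47 in those fits. CSTA and SPRR1B each kept it in only 1 of the 6 fits that left out a library, CSTA without 48 h control replicate C and SPRR1B without 24 h control replicate B. LCE3C missed it without 24 h control replicate C.

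With Arg, the same question gave 6 members higher and 9 lower of 25 tested, against 14.3% and 14.0% of all 14398 tested genes in edgeR. PPL, TGM1, EVPL, CSTA, TGM3, and SBSN rose, while IVL (log2 fold change 0.15 ± 0.21, adjusted p = 0.639) and CNFN (0.62 ± 0.60, adjusted p = 0.477) of the scaffold and related group did not pass the test in edgeR. PPL went from 158, 233, and 204 CPM to 326, 356, and 398 CPM (0.86 ± 0.10, adjusted p = 4.89e-06 in edgeR). TGM1 went from 36.7, 32.2, and 43.3 CPM to 64.9, 60.4, and 60.5 CPM (0.73 ± 0.10, adjusted p = 1.81e-05 in edgeR). EVPL rose by 0.51 ± 0.13 and CSTA by 0.32 ± 0.07, with adjusted p-values of 0.00555 and 0.00223 in edgeR, and for these 4 genes the groups did not overlap. TGM3, the transglutaminase of late differentiation, had 3, 3, and 3 counts at 24 h and 13, 12, and 11 counts at 48 h. The ratio of its counts per library size was 4.02, with an exact binomial 95% interval from 1.90 to 9.48 for counting error. TGM3 entered the test through its 48 h libraries only, and its call (adjusted p = 0.0228 in edgeR) was lost without any 1 of the 6 libraries, at log2 fold changes between 1.93 and 2.01. SBSN, the secreted protein suprabasin, was at 7.30, 11.5, and 12.3 CPM and then at 19.6, 14.1, and 11.6 CPM, with overlap (0.55 ± 0.19, adjusted p = 0.0409 in edgeR). It passed neither without Arg replicate A at either time nor without Arg replicate B at 48 h.

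The members that fell with time in the Arg-treated cells were 4 SPRR genes, 2 LCE genes, the secreted proteins DMKN and CST6, and CALML3. SPRR1B fell from 56.4, 53.2, and 46.6 CPM to 36.0, 32.1, and 28.1 CPM, without overlap (-0.70 ± 0.10, adjusted p = 4.51e-05 in edgeR). SPRR1A, another cross-bridging protein of the envelope, fell from 10.6, 11.2, and 8.81 CPM to 5.89, 6.30, and 6.27 CPM (-0.72 ± 0.16, adjusted p = 0.00251 in edgeR). SPRR2G fell from 3.26, 3.84, and 3.76 CPM to 1.25, 1.49, and 1.55 CPM (-1.34 ± 0.29, adjusted p = 0.00185 in edgeR), and SPRR3 from 3.59, 2.21, and 3.06 CPM to 1.20, 1.07, and 2.01 CPM (-1.05 ± 0.34, adjusted p = 0.0273 in edgeR). Every 48 h library of these 4 genes was below every 24 h library. Over the 25 tested members, 5 were higher and 10 lower without overlap, against 21.1% and 21.2% of all tested genes, and the median log2 fold change was -0.23, against 0.00 over all genes.

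LCE3D fell by 0.92 ± 0.28 on the log2 scale and LCE3E fell by 1.78 ± 0.46 (adjusted p = 0.018 and 0.00672 in edgeR), and LCE3E entered the test through its 24 h libraries only. LCE3E went from 1.91, 1.11, and 1.66 CPM to 0.469, 0.476, and 0.403 CPM, without overlap. DMKN, which encodes dermokine, fell from 95.7, 103, and 103 CPM to 80.9, 81.2, and 78.4 CPM (-0.32 ± 0.07, adjusted p = 0.00227 in edgeR). CST6, the cystatin M/E that restrains proteases of the envelope, fell from 2.69, 3.67, and 2.36 CPM to 0.834, 2.02, and 1.04 CPM (-1.17 ± 0.37, adjusted p = 0.0228 in edgeR). CALML3 fell by 0.58 ± 0.20 (adjusted p = 0.0325 in edgeR). The falls of SPRR1B, SPRR1A, SPRR2G, LCE3E, and DMKN passed the test whichever library was left out. SPRR3 passed it only without Arg replicate B at 24 h or replicate C at 48 h, with log2 fold changes between -0.88 and -1.37 over the 6 fits. LCE3D missed it without Arg replicate B at 24 h or A at 48 h, CALML3 without C at 24 h or B or C at 48 h, and CST6 without B at 24 h or A or C at 48 h. TCHH and FLG, the S100 fused genes, did not pass the test in any comparison. TCHH went from 1.29, 2.73, and 1.77 CPM to 2.45, 2.44, and 3.57 CPM with Arg, and FLG from 0.730, 2.15, and 0.859 CPM to 1.62, 1.43, and 1.5 CPM. The lipoxygenase genes ALOXE3 and ALOX12B did not pass it either, and their mean level per group lay between 2.45 and 3.10 CPM for ALOXE3 and between 0.316 and 0.676 CPM for ALOX12B.

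**Figure D3:**
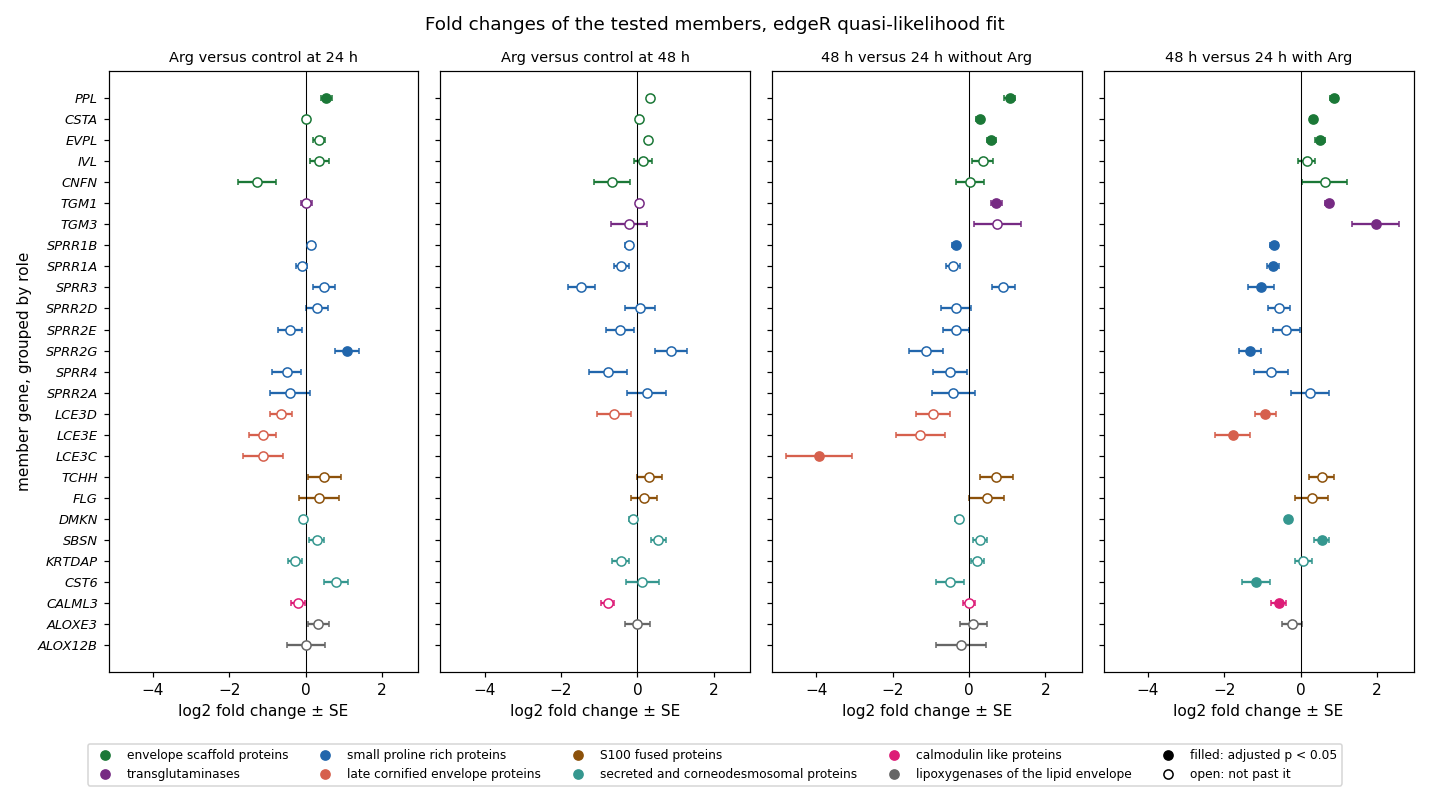
Log2 fold change with its SE for the tested members in the 4 comparisons, from edgeR's quasi-likelihood fit, coloured by role; filled symbols have an adjusted p under 0.05. In both comparisons over time the filled scaffold and transglutaminase symbols lie to the right of 0 and the filled SPRR and LCE symbols to the left. Of these, LCE3C without Arg and LCE3E and TGM3 with Arg entered the test only through the time at which they were higher. The side on which these 3 lie is a description.

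The arms with and without Arg use different libraries, so the changes with time can be set side by side. Of 25 members tested in both, 22 had the same sign of the log2 fold change, against 77.5% of the 14057 genes tested in both. PPL, TGM1, EVPL, and CSTA rose in both arms, and SPRR1B fell in both. A further 10 members passed the test with Arg only and 0 without Arg only, which does not show a difference between the arms. Over the 25 members, Pearson's r of the changes in the arms was 0.75 and Spearman's rho 0.76, and r was 0.68 over all genes. These are correlations across genes, which are not independent replicates. By role, the scaffold and related group had 3 of 5 tested members higher and 0 lower in each arm. The SPRR genes had 0 higher and 1 lower of 8 without Arg, and 0 higher and 4 lower of 8 with Arg. The summed level of the scaffold and related members went from 269 ± 31.6 to 455 ± 50.9 CPM (SD, n = 3) without Arg and from 341 ± 47.2 to 544 ± 32.8 CPM with it. That of the SPRR genes went from 71 ± 9.1 to 57 ± 6.28 CPM and from 76.9 ± 6.04 to 46.8 ± 3.22 CPM. For the LCE genes the values were 10.8 ± 4.35 and 4.81 ± 3 CPM without Arg and 6.11 ± 0.315 and 3 ± 0.387 CPM with it. PPL, SPRR1B, and LCE3D make up most of these sums. By place, the chromosome 1 members had 0 higher and 2 lower of 14 tested without Arg, and 0 higher and 6 lower of 13 tested with Arg. The members on other chromosomes had 4 higher and 0 lower of 13 tested, and 6 higher and 3 lower of 12 tested. Among these calls, LCE3C without Arg and LCE3E and TGM3 with Arg entered the test only through the time at which they were higher. Their calls are descriptions and add nothing to a contrast by place. Over all genes the shares were 9.90% and 10% without Arg, and 14.3% and 14.0% with it.

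**Figure D4:**
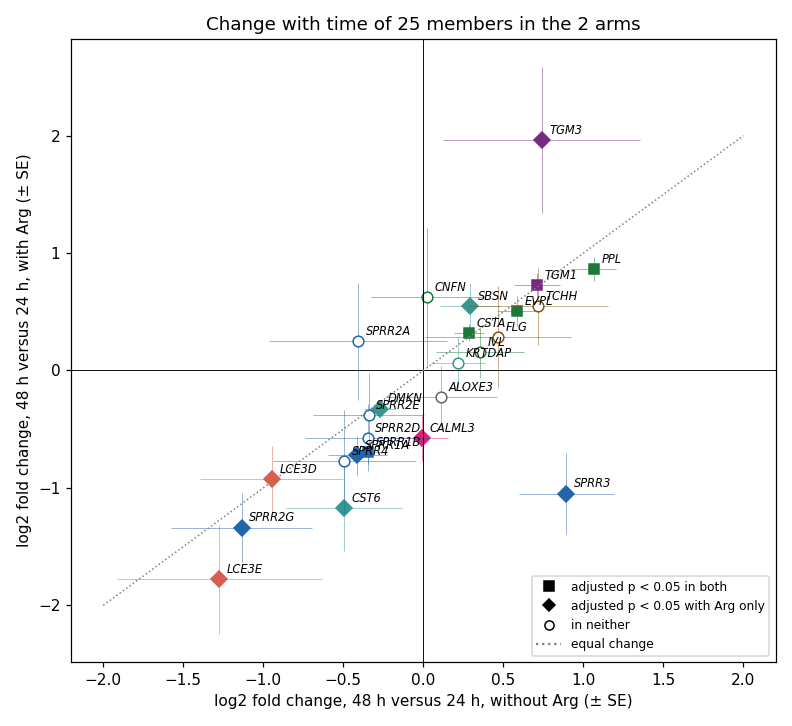
Log2 fold change from 24 to 48 h of the 25 members tested in both arms, without Arg on the x axis and with Arg on the y axis, each with its SE; the symbol shows in which arms the adjusted p was under 0.05. Most members lie near the line of equal change, and SPRR3 lies farthest from it in the lower right, at 0.89 and -1.05.

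SPRR3 was the member whose change with time had opposite signs in the arms with no overlap of the groups in either. It went from 2.13 ± 0.16 to 3.96 ± 1.33 CPM (SD, n = 3) without Arg and from 2.95 ± 0.70 to 1.43 ± 0.51 CPM with Arg. The difference of its Arg effects between 48 and 24 h was -1.94 ± 0.45 on the log2 scale. It ranked 18 of 15148 genes by p (0.000362), and its adjusted p was 0.287 in edgeR's fit over the 12 libraries. No member passed this test, where 0.0132% of all genes did. At an unadjusted p under 0.05, edgeR gave 0 members with a positive difference and 3 with a negative one (SPRR3, SPRR1B, and CALML3). DESeq2 called SPRR3 (adjusted p = 0.0407), and so did edgeR without replicate B of the 48 h control (-2.17, adjusted p = 0.0205), where 0.297% of all genes passed.

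The members differ widely in exonic length, from 270 to 12747 bases with a median of 1373 among those tested. Their changes with time tended to follow it, with exceptions. DMKN (7444 bases) and CALML3 (2763 bases), both above the median length, fell with time in the Arg arm. Spearman's rho between log2 fold change and exonic length was 0.74 over 27 members without Arg and 0.56 over 25 members with Arg. Over all tested genes it was 0.13 and 0.20. For Arg against control, rho was 0.53 at 24 h and 0.34 at 48 h over the members, against 0.05 and 0.16 over all genes. The long members include the plakins and the S100 fused proteins and the short ones the SPRR and LCE proteins, so length and role cannot be told apart here. The trend on exonic length was fitted over all tested genes, where it is weak, so removing it cannot separate length from role. With this trend removed from each library, PPL, TGM1, EVPL, and CSTA still rose and LCE3C and SPRR1B still fell without Arg. With the same trend removed, SPRR2G for Arg at 24 h (adjusted p = 0.0575) and CALML3 over time with Arg (adjusted p = 0.0585) no longer passed the test in edgeR.

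**Figure D5:**
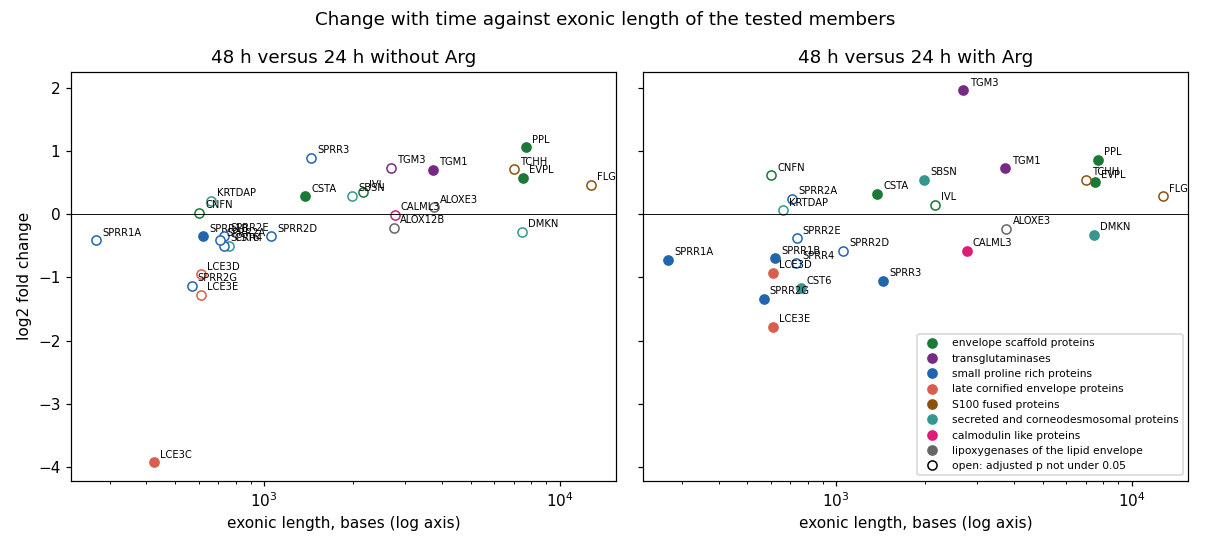
Log2 fold change from 24 to 48 h against exonic length in bases, on a log axis, for the tested members without Arg (left) and with Arg (right), coloured by role; filled symbols have an adjusted p under 0.05. Members shorter than SPRR3 that are filled lie below 0 except CSTA, and PPL, EVPL, and TGM1 lie above 0. With Arg, the longer filled members TGM3 and SBSN also lie above 0, while DMKN (7444 bases) and CALML3 (2763 bases) lie below 0.

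Genes that work beside the members were counted from lists drawn up by function, with earlier results of these data known. Over all genes, the shares that passed in edgeR were 9.90% higher and 10% lower with time without Arg, and 14.3% and 14.0% with Arg. For Arg at 24 h they were 2.79% and 3.84%. Of 14 suprabasal keratins and desmosomal cadherins, 7 of 11 tested rose with time without Arg and 7 of 12 with Arg, and 0 fell. KRT13 rose by 1.48 ± 0.30 and 1.49 ± 0.11 and KRT10 by 1.53 ± 0.31 and 1.82 ± 0.17 on the log2 scale. KRT4 rose by 1.76 ± 0.26 without Arg, and DSC2, a desmosomal cadherin, by 1.24 ± 0.10 with it. In neither Arg comparison did any of them pass the test. At an unadjusted p under 0.05 in edgeR, 5 of 10 were higher and 0 lower with Arg at 24 h, against 10.8% and 11.9% of all genes. At 48 h, 0 of 12 were higher and 1 lower, against 5.94% and 7.49%. The median log2 fold change of this list with time was 1.28 without and 1.37 with Arg, against -0.01 and -0.23 for the members. Envelope partners outside the rule showed 5 higher and 2 lower of 16 without Arg and 5 higher and 3 lower of 14 with it. Desmoplakin (DSP), to which the plakins bind, rose by 0.75 ± 0.12 and 0.89 ± 0.07, and the adhesion protein LYPD3 by 1.1 ± 0.17 and 1.5 ± 0.13. PKP1 rose with time in both arms (1.06 ± 0.19 and 0.83 ± 0.09) and with Arg at 24 h (0.54 ± 0.12), where S100A9 fell by 0.53 ± 0.10. Of 14 basal layer genes 4 rose and 4 fell without Arg, and 5 rose and 5 fell with it. Of these, CAV1 fell by 0.49 ± 0.07 and 0.87 ± 0.07, and DST rose by 0.61 ± 0.09 and 0.76 ± 0.07. With Arg at 24 h, 2 basal layer genes rose (KRT19 and CAV1) and 1 fell (ITGA6). The adjusted p-values of the named genes were all under 0.05 in edgeR.

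Of the proteases and inhibitors that process the envelope, 3 of 14 rose and 1 fell with time without Arg, and 4 rose and 1 fell with it. The shares over all genes were 9.90% and 10% without Arg, and 14.3% and 14.0% with Arg. PADI3, which converts arginine in filaggrin and trichohyalin to citrulline, rose by 1.23 ± 0.17 and 0.92 ± 0.19, and the protease BLMH fell by 0.47 ± 0.11 and 0.34 ± 0.11. None of this list passed either Arg comparison. Of the lipid envelope genes, 3 of 13 rose and 1 fell with time without Arg, and 2 of 12 rose and 2 fell with it. For Arg against control at 24 h, 1 of 12 rose and 1 fell, against 2.79% and 3.84% of all genes. ABCA12, the lipid transporter of lamellar bodies, fell by 0.59 ± 0.15 with Arg at 24 h and rose with time by 0.68 ± 0.14 without and 1.38 ± 0.11 with Arg.

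Of 32 transcription factors of differentiation, 13 rose and 1 fell with time without Arg, and 18 rose and 1 fell with it. The shares over all genes were 9.90% and 10% without Arg, and 14.3% and 14.0% with Arg. GRHL3 rose by 1.61 ± 0.19 in the arm without Arg, while FOSL1 fell by 1.77 ± 0.23 and 1.16 ± 0.11. With Arg, 2 rose and 5 fell at 24 h, and 0 rose and 1 fell at 48 h. Over all genes 2.79% rose and 3.84% fell at 24 h, and 0% and 0.117% at 48 h. The AP-1 gene FOS was at 196, 126, and 162 CPM in the 24 h control and at 37.3, 36.0, and 43.4 CPM with Arg (-2.05 ± 0.13, adjusted p = 4.26e-08 in edgeR). At 48 h it was at 135, 131, and 133 CPM and at 79.5, 62.9, and 65.3 CPM (-0.94 ± 0.09, adjusted p = 0.000507 in edgeR), and its Arg effects differed between the times by 1.11 ± 0.17 (adjusted p = 0.0229 in edgeR). JUN and KLF4 fell by 0.48 ± 0.10 and 0.45 ± 0.09 with Arg at 24 h (adjusted p = 0.00555 and 0.00774 in edgeR), as did FOSL1 and JUND. For FOSL1 the groups at 24 h overlapped, with control replicate B at 79.1 CPM and Arg replicate B at 79.3 CPM. The factors that rose with Arg at 24 h were ZNF750 (1.38 ± 0.40, adjusted p = 0.0469 in edgeR) and GRHL2 (0.35 ± 0.09, adjusted p = 0.0205 in edgeR), both named after their values were seen. The 4 SPRR genes printed above with TGANTCA were chosen because they changed in some comparison. Of these, SPRR2G was called higher with Arg at 24 h, near the threshold, and the others did not pass the test there. A link between AP-1 factors and these genes was not tested.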

How the data were processed

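TIGK libraries of 4 groups (3 each) were assigned to groups from the labels. The deposited values are raw integer counts per gene, made by the authors with fastp, STAR (GRCh38/hg38), and featureCounts, and not normalized; tool versions, annotation release, and strand setting are not given in the sources used here. The exonic length column of the deposited table was used for levels per kb. Here, edgeR 4.0.16 (R 4.3.3, limma 3.58.1) was used, with TMM scaling, filterByExpr, and quasi-likelihood tests with no block, for each pair of groups and for the interaction over 12 libraries. Adjusted p-values are Benjamini-Hochberg values across every gene tested (threshold 0.05). CPM values use the TMM factors of the 12 libraries. The members and lists were chosen with earlier results of these data known. Per role, the 2 tested members of highest mean CPM and every member with an adjusted p under 0.05 were to be named, and up to 3 genes per list and comparison, some of which are not reported here; other members are named to complete a count or a role. Alternatives were DESeq2 1.42.0, its size factors in edgeR, no filter, at least 10 counts in every library, the replicate letter as a block, all 12 libraries in a single model, and leaving out each library. Removal of the trend on exonic length (lowess span 0.3, prior count 2) was chosen after seeing the data. The fits were checked on simulated counts. With 3 libraries against 3, an exact permutation test cannot give a p below 0.1. Replicate pairs differed by more than sampling noise (chi-square per degree of freedom 3.66 to 23.9, over genes with at least 20 counts). Motifs were searched with Python 3.11.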

Additional observations from a re-analysis of the deposited data

Results flagged for a closer look

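SPRR3 drew attention because its 3 libraries at 48 h were all above those at 24 h without Arg and all below them with Arg. The log2 fold changes over time were 0.89 and -1.05, and they differed by -1.94 between the arms. The test of this difference did not pass the threshold in edgeR (adjusted p = 0.287 over 15148 genes), and it did in DESeq2 (adjusted p = 0.0407). SPRR3 is a low transcript here, with 574 counts over the 12 libraries and at most 98 in any of them. No cause was tested.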

How the results depend on the processing

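The counts of members called from 24 to 48 h with Arg (6 higher, 9 lower) stayed within 1.5 times under all alternatives, and lay at 4 to 5 and 6 to 8 with a library left out. For Arg at 24 h (2 higher, 0 lower), DESeq2 gave 1 higher and 1 lower, a single model of all libraries 1 higher, and removal of the length trend 1 higher and 1 lower. No filter gave 1 lower. Leaving out a library gave 0 to 3 higher and 0 to 2 lower. For Arg at 48 h (0 and 0), DESeq2 gave 1 higher and 2 lower, no filter 2 and 2, and leaving out a library 0 to 3 and 0 to 6, the highest without control replicate B. From 24 to 48 h without Arg (4 higher, 2 lower), no filter gave 5 lower, at least 10 counts in every library 1 lower, a single model 4 lower, and leaving out a library 2 to 4 higher and 0 to 3 lower. For the difference of Arg effects (0), DESeq2 and no filter each gave 1, SPRR3, and leaving out a library 0 to 1. Without 48 h control replicate A, this difference changed sign for LCE3E (0.00984) and ALOX12B (0.26), neither of which had passed the test, and over all libraries left out it lay between -1.07 and 0.00984 for LCE3E and between -1.35 and 0.26 for ALOX12B. The fit with the replicate letter as a block gave 1 lower for Arg at 24 h (LCE3E, adjusted p = 0.0426 in edgeR), 2 lower at 48 h, and 5 lower over time without Arg, and changed no other count by more than 1.5 times. Correlations of same-lettered libraries lay between -0.12 and 0.04 for Arg at 24 h, -0.04 and 0.07 at 48 h, 0.07 and 0.23 over time without Arg, and -0.05 and -0.03 with it. In no comparison were all 3 above 0.1, so the letters were not taken to pair the libraries. In both controls, replicate B was the lowest of its group for LCE3D and LCE3E and the highest for KRT10 and KRT13. Whether these libraries share an origin was not tested. Over all genes, Arg at 48 h gave 0 higher and 17 lower in the main analysis, 41 and 144 with DESeq2, 199 and 374 with no filter, 43 and 141 with the block, and 4 and 37 in a single model. The difference of Arg effects gave 2 genes, 15 with DESeq2, and 88 with no filter. The cause of these changes was not tested. Depth limits what can be said of the 26 members that entered no test.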
